A study of Mus musculus with 6 samples.

Results

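Toll-like receptors and their adaptor Myd88 were followed across 6 RNA libraries of mouse distal colon in acute colitis. The members are the 10 genes Tlr1 to Tlr9 and Myd88, taken by gene name from the 54532 genes of the deposited count table. All 10 passed the filter on low counts and were tested among 16861 genes. The study set 3 libraries labelled Itgbl1 knockout (genotype Itgbl1 -/-, KO 1, 2 and 3) against 3 labelled wild-type (WT 1, 2 and 3). All 6 came from mice that drank 3% dextran sulfate sodium (DSS, 36 to 50 kDa), a polymer that injures the colonic epithelium, for 7 days, so an uninjured colon was not analysed here. The labels used here state neither the strain, age and sex of the mice nor how the knockout allele was made. The libraries are bulk tissue, in which fewer cells of a type and less RNA per cell cannot be told apart. Replicates are given only as numbers, so each p-value reflects sample-to-sample spread, which may be technical.

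Toll-like receptors recognise conserved molecules of microbes and start inflammatory signalling. Tlr2 pairs with Tlr1 or Tlr6 to bind bacterial lipoproteins, Tlr4 responds to lipopolysaccharide together with Cd14 and Ly96, and Tlr5 responds to flagellin, all at the cell surface. Tlr3 binds viral RNA duplexes in endosomes, where Tlr7 and Tlr8 respond to RNA and Tlr9 to unmethylated CpG DNA. Myd88 carries the signal of these receptors except Tlr3, which uses Ticam1, and it also serves receptors of the IL-1 family. In the gut the pathway is known both for driving inflammation against luminal bacteria and for helping the epithelium to withstand injury.

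The targeted gene did not separate the labels. Itgbl1 (ENSMUSG00000032925) had 12, 4 and 10 reads in KO 1, 2 and 3, against 19, 6 and 5 reads in WT 1, 2 and 3. By edgeR's quasi-likelihood test the ratio of 0.878 had a 95% interval reaching from 0.25 to 3.08 (adjusted p = 0.9). Gene totals cannot tell a deleted exon from a retained one, so every direction below follows the labels alone. Gene counts totalled 13326970 to 17465473 in the libraries labelled knockout and 16800399 to 18321389 in the wild-type libraries. KO 3 had the lowest total and 12.8% of its counts on mitochondrially encoded genes, against 3.53 to 4.88% in the other 5 libraries. The colon identity list, 5 transcription factor genes such as Cdx2 and Hoxb13, summed to 45.0 to 191.9 CPM in the libraries labelled knockout. In wild-type libraries it summed to 461.8 to 1367 CPM. In KO 3 Cdx2 had 1 read and Hoxb13 9 reads, and most of the sum there was Hoxa13 (17.1 CPM) and Hoxd13 (26.2 CPM). The 11 epithelial markers given below all had negative log2 ratios too. The part that epithelial content has in the colon identity sum was not tested. CPM stands for reads of a gene relative to the TMM-scaled size of its library.

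The genomic neighbourhood of Tlr1 and Tlr6 bears on how their reads are counted. Both lie on the minus strand of chromosome 5 (GRCm38), Tlr1 (ENSMUSG00000044827) at chr5:64924679-64933563 and Tlr6 (ENSMUSG00000051498) at chr5:64952031-64960097, 18467 bases apart with no annotated gene between them. Their coding sequences, 2385 and 2418 bases long in GENCODE M21, share 454 identical windows of 50 bases, which is 19.4% of the windows of Tlr1. No other pair of members shared any window of that length. The longest identical run, shown because reads inside it cannot be assigned to either gene by sequence, spans 229 coding bases at chr5:64925537-64925765 in Tlr1 and chr5:64953828-64954056 in Tlr6:
Tlr1 and Tlr6, minus strand: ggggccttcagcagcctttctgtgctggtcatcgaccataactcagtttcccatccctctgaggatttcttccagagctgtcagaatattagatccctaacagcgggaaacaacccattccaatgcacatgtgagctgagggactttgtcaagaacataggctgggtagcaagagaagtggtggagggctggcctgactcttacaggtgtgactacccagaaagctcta
The handling of reads that match several places is not stated in the labels used here, and the values of this pair are uncertain to that extent.

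Promoters are shown for Tlr1 and Tlr3, the members with the largest differences between the labels, and for Tlr2 and Myd88, whose windows held NF-kB or interferon-type motifs. RefSeq windows on GRCm38.p6, 250 bases before and 50 after a transcription start, were found for 8 of the 10 members. The start used lay inside the deposited gene, 5 bases from its 5′ end for Tlr1, 159 for Tlr2, 700 for Tlr3 and 1393 for Myd88. The windows lie at chr5:64933509-64933808 for Tlr1, chr8:45410331-45410630 for Tlr3, chr3:83841559-83841858 for Tlr2 and chr9:119339969-119340268 for Myd88, all on the minus strand. Capitals mark matches on either strand to a PU.1-type core (GAGGAA), an interferon-stimulated response element or ISRE (GAAA, any 2 bases, GAAA), an IRF core (AANNGAAA, which can lie inside an ISRE), an AP-1 motif (TGANTCA) or the NF-kB consensus:
Tlr1: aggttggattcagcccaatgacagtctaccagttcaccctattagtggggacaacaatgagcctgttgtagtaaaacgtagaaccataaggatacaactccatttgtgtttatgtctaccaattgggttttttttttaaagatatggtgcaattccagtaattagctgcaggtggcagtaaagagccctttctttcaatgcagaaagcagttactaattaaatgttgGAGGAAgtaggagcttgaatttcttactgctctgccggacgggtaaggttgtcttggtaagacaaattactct
Tlr3: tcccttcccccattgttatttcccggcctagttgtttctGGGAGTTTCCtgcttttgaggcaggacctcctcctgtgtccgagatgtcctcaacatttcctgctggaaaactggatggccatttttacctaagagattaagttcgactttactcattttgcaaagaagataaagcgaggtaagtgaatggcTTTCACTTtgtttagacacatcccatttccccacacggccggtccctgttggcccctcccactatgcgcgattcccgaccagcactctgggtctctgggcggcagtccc
Tlr2: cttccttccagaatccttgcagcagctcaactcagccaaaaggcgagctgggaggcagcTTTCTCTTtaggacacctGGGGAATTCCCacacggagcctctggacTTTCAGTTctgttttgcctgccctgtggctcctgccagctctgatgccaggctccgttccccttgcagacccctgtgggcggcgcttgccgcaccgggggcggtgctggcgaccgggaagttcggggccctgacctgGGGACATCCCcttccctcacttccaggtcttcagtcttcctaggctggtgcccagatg
Myd88: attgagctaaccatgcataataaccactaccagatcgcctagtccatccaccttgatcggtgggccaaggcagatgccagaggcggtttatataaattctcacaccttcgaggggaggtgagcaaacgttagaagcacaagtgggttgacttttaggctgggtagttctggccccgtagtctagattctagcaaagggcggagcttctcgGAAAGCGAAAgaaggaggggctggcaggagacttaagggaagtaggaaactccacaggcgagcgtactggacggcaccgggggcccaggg
The Tlr1 window held 1 PU.1-type core, 23 bases before the start. The Tlr3 window held an NF-kB match and an IRF core, and the Tlr2 window held NF-kB matches at 2 places with 2 IRF cores. The Myd88 window held the single ISRE among the 8 windows, 40 bases before the start, in a stretch that the antisense gene Acaa1a also covers. Among 32851 promoter windows of the same length, 28.3% held the PU.1-type core, 3.44% the ISRE, 23.9% the IRF core, 7.81% the AP-1 motif and 8.46% the NF-kB consensus. A match describes letters in the window and does not show that a factor binds there.

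Tlr1 and Tlr3 were the members that differed most between the labels, and for both the 3 libraries labelled knockout lay below all 3 wild-type ones. Neither passed the test adjusted over all genes. With edgeR's quasi-likelihood test, 0 of 10 members had an adjusted p under 0.05, as did 0% of all genes tested. At an unadjusted p under 0.05 there were 2 of 10 members, both lower, where 24.1% of all genes passed in either direction and 12.3% were lower. The libraries did not overlap in the same 2 members, against 32.3% of all genes in either direction and 17.3% lower. By DESeq2 the same 2 members fell at an adjusted p under 0.05, which 10.5% of the genes with an adjusted p reached, 6.45% lower. With limma-voom and quality weights 1 member passed, Tlr1, against 8.28% of all genes, 6.05% lower. Without KO 2 the edgeR test also called Tlr1, against 10.4% of all genes, 7.75% lower. With no filter on low counts 0 members passed, against 0.622% of all genes. The members' share at an unadjusted p was near that of all genes, so their count is not a result about the family. The median log2 ratio of the 10 members was -0.093, against 0.061 over all genes tested. The sign was negative in 7 members and positive in 3, against 46.9% and 53.1% of all genes, but with upper-quartile scaling, which raised the median gene by 0.145, Tlr4, Tlr7 and Tlr8 turned positive.

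**Figure D1:**
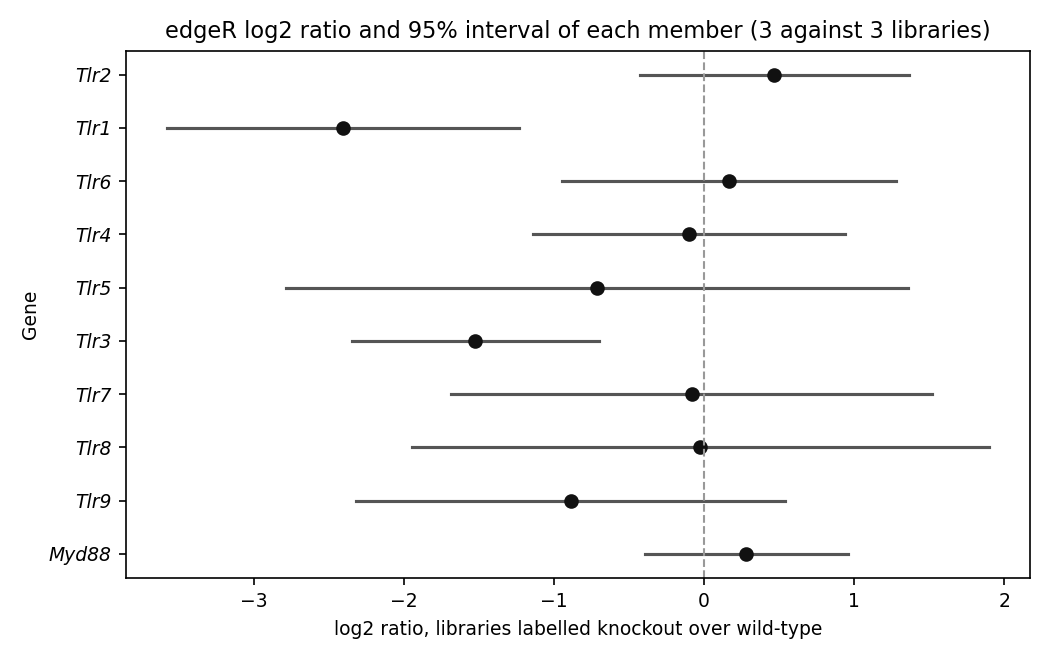
Log2 ratio of libraries labelled knockout over wild-type for each member, by edgeR's quasi-likelihood fit, with its 95% interval (bars) and a dashed line at no difference. The intervals of Tlr1 (-3.58 to -1.24) and Tlr3 (-2.35 to -0.70) lie below 0 and the other 8 cross it.

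Among the lipoprotein receptors, the libraries of the labels lay apart for Tlr1 and overlapped for Tlr2 and Tlr6. Tlr1, which pairs with Tlr2 for triacylated lipoproteins, stood at 14.4, 22.9 and 6.22 CPM in KO 1, 2 and 3, against 56.3, 103.8 and 71.3 CPM in WT 1, 2 and 3. The groups were far apart, with KO 2 the nearest of the libraries labelled knockout to wild-type and WT 1 the lowest of the wild-type libraries. The log2 ratio was -2.41 ± 0.50 (SE), a ratio of 0.188 with a 95% interval of 0.0835 to 0.424 (edgeR adjusted p = 0.094). DESeq2 gave -2.44 with an adjusted p of 0.000364. Without KO 2 the edgeR test was passed, with a log2 ratio of -2.95 and an adjusted p of 0.0257. Without KO 3 the log2 ratio was -2.06, and over all alternatives the adjusted p ranged from 0.000364 to 0.286.

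Tlr2 (ENSMUSG00000027995, chr3:83836272-83841767), the shared partner of both heterodimers, stood at 59.3, 51.0 and 37.9 CPM in KO 1, 2 and 3. In WT 1, 2 and 3 it stood at 54.6, 21.3 and 31.3 CPM. The groups overlapped because WT 1 was as high as the libraries labelled knockout. The log2 ratio was 0.47 ± 0.38 (edgeR adjusted p = 0.48), and without WT 1 it was 0.88. Tlr6, which pairs with Tlr2 for diacylated lipoproteins, stood at 6.08, 5.21 and 2.95 CPM in KO 1, 2 and 3 and at 4.93, 2.47 and 5.31 CPM in WT 1, 2 and 3. These ranges cover each other almost completely, and the ratio of 1.12 had a 95% interval of 0.518 to 2.43.

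Ratios taken inside one library do not depend on how libraries are scaled, and they were computed per kilobase of gene length after the values were seen. Tlr1 over Tlr2 was 0.218, 0.404 and 0.148 in KO 1, 2 and 3, against 0.929, 4.4 and 2.05 in WT 1, 2 and 3. Tlr1 was thus below Tlr2 in all libraries labelled knockout and above it in WT 2 and WT 3. Tlr1 over Tlr6 was 2.63, 4.9 and 2.35 in KO 1, 2 and 3, against 12.7, 46.9 and 15.0 in WT 1, 2 and 3. Tlr6 over Tlr2 was 0.0828, 0.0826 and 0.063 in KO 1, 2 and 3, and 0.0731, 0.0939 and 0.137 in WT 1, 2 and 3, so its groups overlapped. Both ratios of Tlr1 separated the labels with an exact two-sided permutation p of 0.1, the smallest that 3 against 3 allows, and Benjamini-Hochberg adjustment over 16 such within-library measures gave 0.267. Tlr6 over Tlr2 had an exact permutation p of 0.3.

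**Figure D2:**
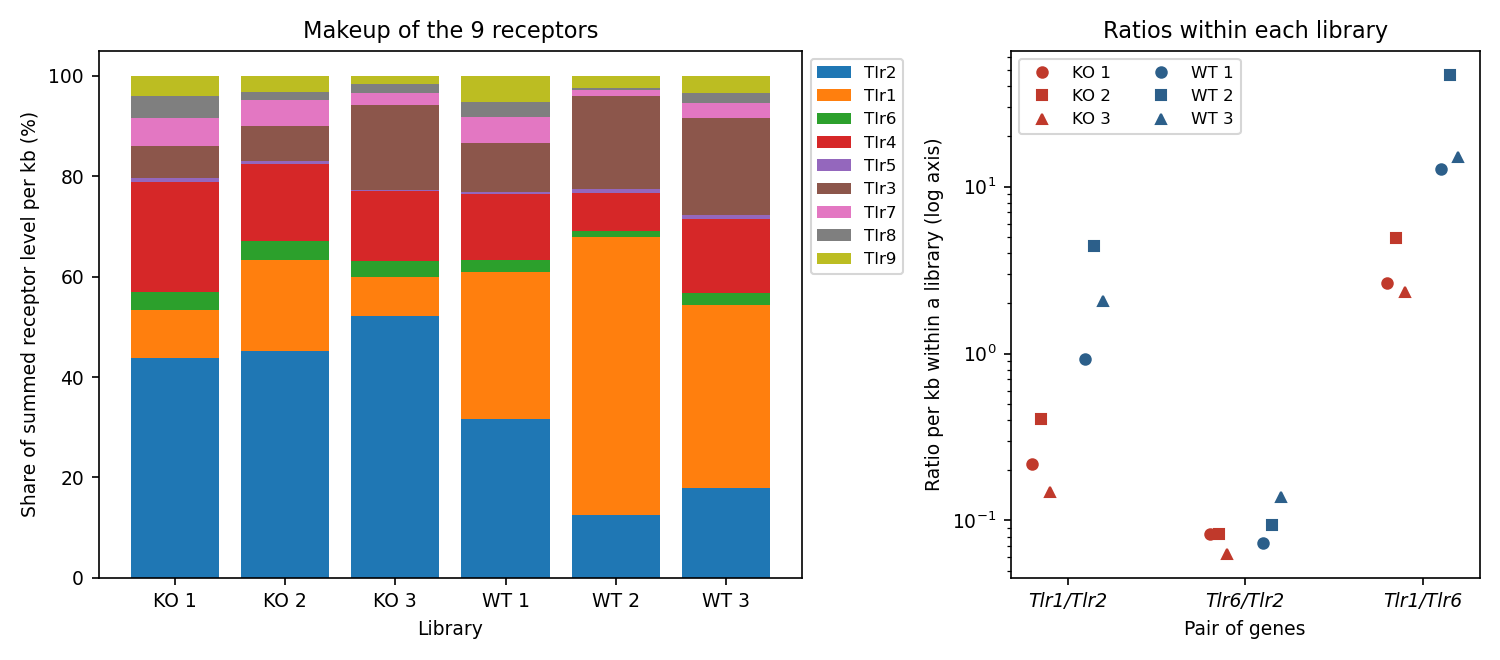
Left, the share of each receptor in the summed level of Tlr1 to Tlr9 per kilobase, in percent, for each library. Right, ratios of Tlr1, Tlr2 and Tlr6 per kilobase within each library on a log axis, where Tlr1 over Tlr2 was 0.148 to 0.404 in libraries labelled knockout and 0.929 to 4.4 in wild-type ones.

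In the makeup of the receptors, the shares of Tlr1, Tlr2 and Tlr6 did not overlap between the labels. Tlr1 took 9.55, 18.2 and 7.7% of the summed receptor level per kilobase in KO 1, 2 and 3, against 29.4, 55.3 and 36.6% in WT 1, 2 and 3. Tlr2 took 43.8, 45.1 and 52.2% in KO 1, 2 and 3, against 31.6, 12.6 and 17.8% in WT 1, 2 and 3. Both shares, and that of Tlr6, gave an exact permutation p of 0.1 (0.267 after adjustment). The shares of a library add up to the whole, so a lower share of Tlr1 by itself raises the others, and the CPM of Tlr2 and Tlr6 overlapped between the labels, as did Tlr6 over Tlr2. The summed level of the 9 receptors, the 1 measure of the 16 that does depend on scaling, was 45.0, 37.5 and 24.1 CPM per kilobase in KO 1, 2 and 3. It was 57.3, 56.2 and 58.3 CPM per kilobase in WT 1, 2 and 3, where it varied far less than any single receptor did (exact permutation p = 0.1, 0.267 after adjustment).

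The receptors for lipopolysaccharide and flagellin did not separate the labels. Tlr4 (ENSMUSG00000039005, chr4:66827584-66930284) stood at 54.7, 32.0 and 18.7 CPM in KO 1, 2 and 3 and at 41.9, 23.7 and 47.7 CPM in WT 1, 2 and 3. The libraries labelled knockout held both the highest and the lowest value. Its ratio of 0.932 had a 95% interval reaching from 0.453 to 1.92 (edgeR adjusted p = 0.907), so ratios across that range are compatible with these libraries. Tlr5 (ENSMUSG00000079164, chr1:182954788-182976044) was the least abundant member, with 41, 21 and 1 reads in KO 1, 2 and 3 and 21, 37 and 33 reads in WT 1, 2 and 3. Its level was 1.10 ± 0.98 CPM in the libraries labelled knockout and 1.85 ± 0.55 CPM in the wild-type libraries (SD, n = 3 each). The log2 ratio was -0.71 ± 0.88 (edgeR adjusted p = 0.645). It was -0.22 without KO 3 and -1.45 without KO 1, -1.26 with limma-voom and -1.16 with the replicate block.

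Of the endosomal receptors, Tlr3 lay lower in each library labelled knockout, while Tlr7, Tlr8 and Tlr9 overlapped between the labels. Tlr3 (ENSMUSG00000031639, chr8:45395665-45411080) stood at 14.9, 13.3 and 21.2 CPM in KO 1, 2 and 3, against 29.1, 54.0 and 59.0 CPM in WT 1, 2 and 3. The gap between KO 3 and WT 1 was narrow beside the gap between the other libraries. The log2 ratio was -1.53 ± 0.35, a ratio of 0.347 with a 95% interval of 0.196 to 0.615 (edgeR adjusted p = 0.0983). DESeq2 gave -1.55 with an adjusted p of 0.00925, and over all alternatives the adjusted p ranged from 0.00925 to 0.3. The antisense gene Gm45542, which lies within Tlr3 near its 5′ end, had 0 reads in all 6 libraries.

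Tlr7 and Tlr8 are neighbours on the X chromosome, at chrX:167304929-167330558 (ENSMUSG00000044583) and chrX:167242696-167264329 (ENSMUSG00000040522), 40599 bases apart. Tlr7 stood at 9.98, 7.95 and 2.49 CPM in KO 1, 2 and 3 and at 12.2, 2.72 and 6.72 CPM in WT 1, 2 and 3. Tlr8 stood at 7.21, 2.12 and 1.55 CPM in KO 1, 2 and 3 and at 5.94, 0.949 and 4.25 CPM in WT 1, 2 and 3. Both were high in KO 1 and WT 1 and low in KO 3 and WT 2, and within a label Tlr7 varied 4.01-fold under the knockout label and 4.5-fold under the wild-type label, and Tlr8 4.64-fold and 6.26-fold. Their log2 ratios were -0.08 ± 0.68 and -0.03 ± 0.82, with intervals of the ratio from 0.311 to 2.86 and from 0.259 to 3.72. Without KO 1, the library with the highest Tlr8, the log2 ratio of Tlr8 was -1.0001.

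Tlr9 (ENSMUSG00000045322, chr9:106222598-106226883), the CpG DNA receptor, stood at 6.28, 4.29 and 1.32 CPM in KO 1, 2 and 3. In WT 1, 2 and 3 it stood at 10.5, 4.68 and 7.02 CPM. KO 1 lay above WT 2, and the log2 ratio of -0.89 ± 0.61 did not pass (edgeR adjusted p = 0.401).

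**Figure D3:**
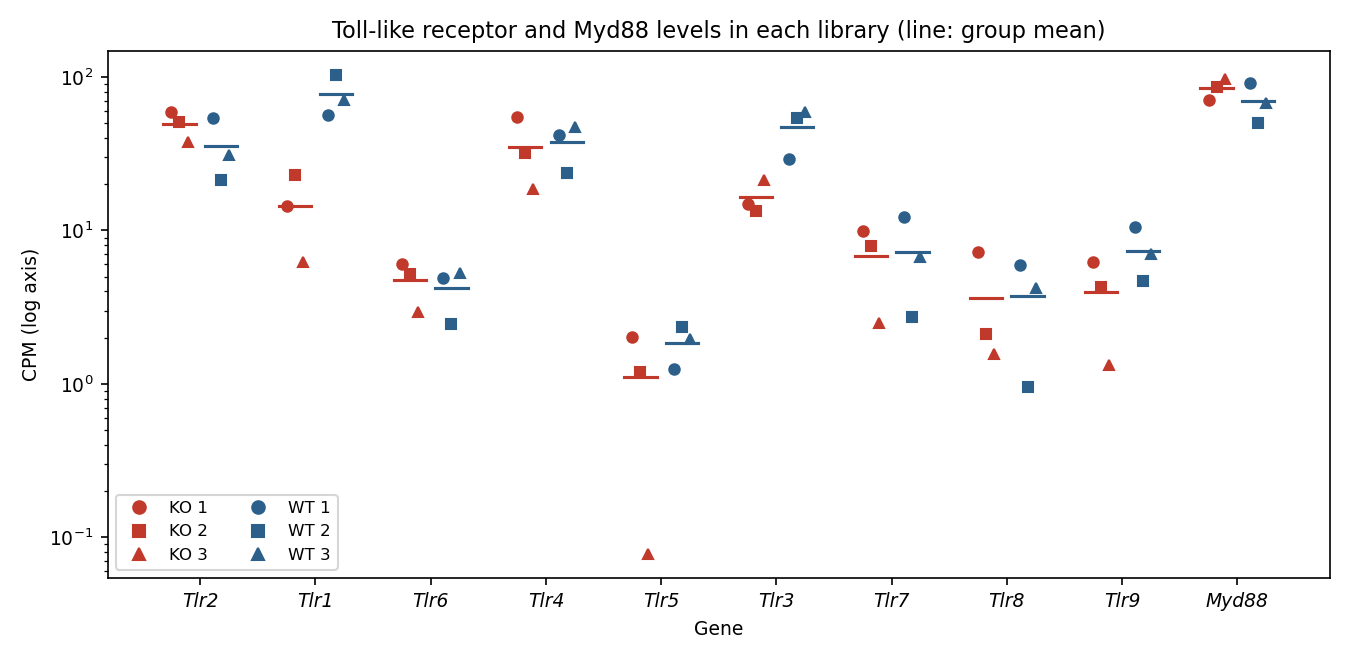
CPM of each member in each library on a log axis, libraries labelled knockout in red left of wild-type libraries in blue, with a line at the mean of each group. Tlr1 and Tlr3 are the 2 genes whose groups do not overlap, and the single point near 0.08 CPM is Tlr5 in KO 3, from 1 read.

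Myd88 was the most abundant member per kilobase of gene length and varied least between libraries of 1 label. It (ENSMUSG00000032508, chr9:119335934-119341411) stood at 71.4, 85.7 and 97.4 CPM in KO 1, 2 and 3, against 91.1, 50.4 and 67.8 CPM in WT 1, 2 and 3. The highest library was 1.36-fold above the lowest under the knockout label and 1.81-fold under the wild-type label, and the groups overlapped. The log2 ratio was 0.28 ± 0.29, a ratio of 1.22 with a 95% interval of 0.76 to 1.94 (edgeR adjusted p = 0.575). Over 1736 bases Myd88 overlaps Acaa1a, a peroxisomal thiolase gene on the other strand, and the labels used here do not say whether counting used strand. The annotated span of Slc22a14, on the same strand as Myd88, covers all of Myd88. Slc22a14 had 6 reads in KO 3 and 0 in each other library. Acaa1a stood at 80.4, 115.4 and 62.8 CPM in KO 1, 2 and 3 and at 112.9, 187.6 and 117.6 CPM in WT 1, 2 and 3, and was lowest in KO 3, where Myd88 was highest, and highest in WT 2, where Myd88 was lowest.

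Per kilobase of gene length, the order of levels placed Tlr1 differently under each label. In the libraries labelled knockout the means per kilobase were 32.9 CPM for Myd88, 16.4 for Tlr2, 6.32 for Tlr4, 4.33 for Tlr1 and 3.16 for Tlr3. There Myd88, Tlr2 and Tlr4 were separated from each other beyond the range of the libraries, while Tlr4, Tlr1 and Tlr3 overlapped. In the wild-type libraries they were 27.1 CPM for Myd88, 23.1 for Tlr1, 11.9 for Tlr2, 9.10 for Tlr3 and 6.79 for Tlr4, and each of these overlapped its neighbour in the order. Tlr6, Tlr7, Tlr8 and Tlr9 followed with means of 1.01 to 1.67 CPM per kilobase under the knockout label and 1.03 to 2.12 under the wild-type label, overlapping each other. Tlr5 came last under both labels, at 0.23 and 0.385 CPM per kilobase.

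Across the 6 libraries the members fell into unlike patterns. Likeness was measured as the root mean square difference of log2 CPM, centred per gene, so that a smaller value is a closer pattern. The closest pairs of members were Tlr4 with Tlr6 at 0.253, Tlr2 with Tlr6 at 0.345 and Tlr2 with Myd88 at 0.37, none of which contains Tlr1 or Tlr3. Among 11931 protein-coding genes with a mean of at least 5 CPM, the closest to Tlr1 were Galnt7, a mucin-type glycosyltransferase gene, at 0.0863, then Slc25a10 at 0.101 and Atp2a3 at 0.136. The closest to Tlr3 were Map3k9 at 0.125, Slc4a7 at 0.183 and Mfsd13a at 0.211. Tlr2 was closest to the platelet-activating factor receptor gene Ptafr at 0.0906, Trpv2 at 0.0948 and Dtx2 at 0.112, and Myd88 to Btbd10 at 0.0482, Fam49b at 0.0731 and Rhog at 0.0781. Tlr7 was closest to H2-Ob at 0.245, Il2rb at 0.248 and Il2ra at 0.267, and Tlr8 to H2-Eb2 at 0.211, the B cell homing receptor gene Cxcr5 at 0.291 and Pclaf at 0.303. For Tlr4 they were Sema4d at 0.117, Aurkb at 0.135 and Gga2 at 0.174, and for Tlr6 Cped1 at 0.11, Phtf2 at 0.123 and Plin4 at 0.129. For Tlr9 they were 9930111J21Rik2 at 0.175, Arhgap19 at 0.242 and Lyz1 at 0.246, and for Tlr5 Uprt at 0.233, Zscan22 at 0.255 and AW209491 at 0.27. With so many genes and 6 libraries a small distance is a description of these libraries.

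Markers of the cell types that carry these receptors also differed between libraries. Summed over 11 epithelial markers, the level was 1358, 10520 and 93.8 CPM in KO 1, 2 and 3, against 19870, 27990 and 21240 CPM in WT 1, 2 and 3. All 11 had negative log2 ratios, with no marker at 0 in any library. Tlr1 had the same order of libraries as that sum across all 6. Tlr3 had the reverse order under the knockout label. Under the wild-type label it did not, and WT 1 was lowest for Tlr3 and for the sum. The 13 macrophage and monocyte markers summed to 427.9 to 1296 CPM in the libraries labelled knockout and 648.9 to 1328 CPM in wild-type ones, with 3 markers positive and 10 negative. The 9 neutrophil markers summed to 1245 to 7397 CPM under the knockout label and 11.1 to 442.4 CPM under the wild-type label, all positive, and the granule gene Ngp was at 0 in WT 2. Fibroblast markers, 7 of 7 positive, summed to 3791 to 6692 CPM and 1390 to 2464 CPM in the same order of labels, and 6 of 6 endothelial markers were positive at 242.9 to 1037 CPM and 143 to 279 CPM.

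The sums of B cell, T cell and conventional dendritic cell markers overlapped between the labels, and that of plasmacytoid dendritic cell markers did so only without the gene Klk1. The 8 B cell markers summed to 110.3 to 215.7 CPM in libraries labelled knockout and 65.8 to 251.1 CPM in wild-type ones, and the 8 T cell markers to 43.5 to 84.9 CPM and 52.9 to 94.0 CPM. The 7 conventional dendritic cell markers summed to 57.1 to 103.6 CPM and 27.6 to 109.8 CPM. Within that list Xcr1 and Clec9a, markers of cross-presenting dendritic cells named after their values were seen, did not overlap. Xcr1 stood at 0.0494 to 0.915 CPM in libraries labelled knockout and 1.27 to 4.28 CPM in wild-type ones, and Clec9a at 0.939 to 1.71 CPM and 2.47 to 6.71 CPM. The groups also did not overlap for Zbtb46, a factor of conventional dendritic cells, which lay the other way at 9.61 to 12.4 CPM in libraries labelled knockout and 5.32 to 9.33 CPM in wild-type ones. Batf3, also in the list, had a log2 ratio of 0.45 and overlapped, at 7.56 to 14.8 CPM and 5.51 to 11.5 CPM in the same order of labels. The list for plasmacytoid dendritic cells, which are known to express Tlr7 and Tlr9, summed to 76.9 to 369.5 CPM and 548.8 to 1290 CPM. Most of that sum in the wild-type libraries was Klk1, at 419.2 to 1162 CPM, against 0.855 to 201.3 CPM in libraries labelled knockout. Without Klk1 the sums overlap, as does Bst2, the next largest, at 51.2 to 134.1 CPM under the knockout label and 98.3 to 114.8 CPM under the wild-type label. The defining marker Siglech had at most 18 reads in any library and 0 in KO 3. No marker of any of these lists passed the edgeR test. The part that these cell types have in the values of Tlr1, Tlr3 and the other members was not tested.

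**Figure D4:**
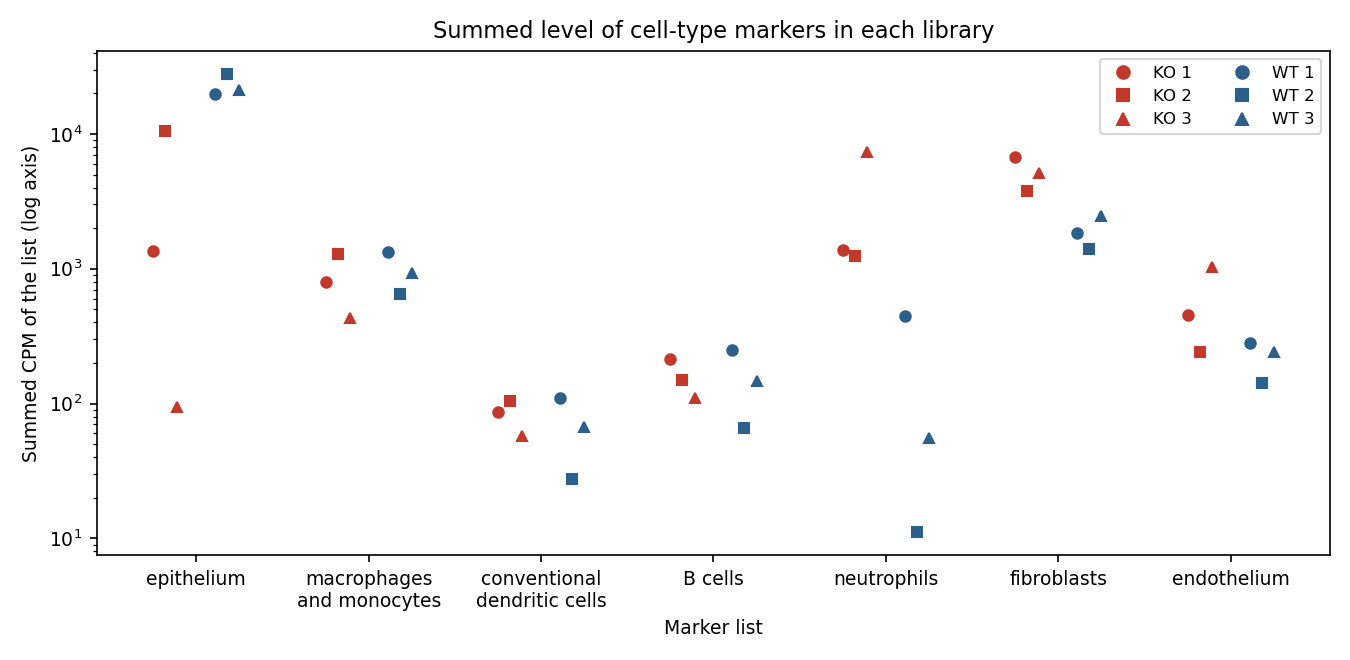
Summed CPM of marker lists in each library on a log axis, libraries labelled knockout in red left of wild-type libraries in blue. The epithelial sum lies between 93.8 and 10520 CPM under the knockout label and between 19870 and 27990 CPM under the wild-type label, while the macrophage sums overlap.

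Other genes of the pathway were taken from 7 lists written by function, 87 genes in all, of which 85 were tested. The lists were chosen with earlier results of these data known, so their shares describe these libraries and are no independent test. None passed the edgeR test adjusted over all genes, 25 had an unadjusted p under 0.05, with 16 higher and 9 lower, and the libraries did not overlap in 34, of which 18 were higher and 16 lower. The share at an unadjusted p was 29.4%, near the 24.1% of all genes (11.8% higher and 12.3% lower), and non-overlap was higher in 15.0% of all genes and lower in 17.3%. The median log2 ratio was 0.064. DESeq2 called 12 genes, 11 higher and 1 lower, against 4.02% and 6.45% of all genes, the lower one being Tlr11 at a log2 ratio of -3.49 (DESeq2 adjusted p = 0.0483).

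Of the rodent receptors outside the members, Tlr11 had few reads and none passed the edgeR test. Tlr11, which in mice responds to a profilin of Toxoplasma, had 1, 10 and 0 reads in KO 1, 2 and 3 and 62, 9 and 46 reads in WT 1, 2 and 3. KO 2 and WT 2 were alike, and edgeR did not test the gene for its low counts. Tlr12, its partner, stood at 4.0, 7.89 and 0.0777 CPM in KO 1, 2 and 3, against 18.7, 11.9 and 16.0 CPM in WT 1, 2 and 3. Its groups did not overlap, yet the log2 ratio of -1.95 ± 1.04 did not pass (edgeR adjusted p = 0.299). Tlr13, a receptor for bacterial ribosomal RNA, had a log2 ratio of 0.71 ± 0.48 with overlapping groups.

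Co-receptors, chaperones and proteases of the receptors went both ways, with a median log2 ratio of 0.064. At an unadjusted p under 0.05 were 5 of 15, 2 higher and 3 lower (33.3%, against 24.1% of all genes). Cd14, which hands lipopolysaccharide to Tlr4, stood at 334.5, 234.2 and 709.4 CPM in KO 1, 2 and 3, against 219.1, 83.6 and 112.1 CPM in WT 1, 2 and 3. The groups did not overlap, though KO 2 was close to WT 1, and the log2 ratio was 1.62 ± 0.56 (edgeR adjusted p = 0.151, DESeq2 adjusted p = 0.0459). Ctsl, an endosomal protease gene, was at 1.31, also higher by DESeq2 and not by edgeR. Cd180, a receptor of B cells and macrophages related to Tlr4, was at -1.16, and the protease gene Ctss, which helps to cleave endosomal receptors, at -1.37, and neither passed.

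Adaptors and proximal kinases were mostly near 0, with a median log2 ratio of -0.063 over 19 genes. At an unadjusted p under 0.05 were 2, both lower (10.5%, against 24.1% of all genes and 12.3% lower). Ticam1, the adaptor of Tlr3, stood at 21.8, 29.8 and 14.5 CPM in KO 1, 2 and 3, against 48.9, 45.2 and 44.6 CPM in WT 1, 2 and 3. The wild-type libraries were nearly equal and every library labelled knockout was below them, with a log2 ratio of -1.07 ± 0.30 that did not pass (edgeR adjusted p = 0.117, DESeq2 adjusted p = 0.0576). The ubiquitin ligase gene Peli1 was at -0.61, the Myd88-associated kinase gene Irak4 at -0.79 and Tirap, which links Tlr2 and Tlr4 to Myd88, at -0.45. In none of these did the groups overlap, and none passed. Over the whole list, the libraries did not overlap in 7 of 19 genes, 5 lower and 2 higher. Among all genes the share without overlap was 32.3%, with 17.3% lower and 15.0% higher.

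Transcription factors of the pathway gave 1 gene of 13 at an unadjusted p under 0.05 (7.69%, against 24.1% of all genes) and a median log2 ratio of -0.036. That gene was Irf8, a factor of myeloid cells, at 72.3, 120.5 and 51.7 CPM in KO 1, 2 and 3 and 177.4, 156.6 and 198.2 CPM in WT 1, 2 and 3. Its log2 ratio was -1.12 ± 0.36 (edgeR adjusted p = 0.135). The next were Chuk at -0.52, the NF-kB subunit gene Rela at 0.63 and Irf3, which acts after Tlr3 and Tlr4, at -0.42, none past the test.

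Negative regulators went both ways, with a median log2 ratio of -0.155 over 12 genes. Of these, 5 had an unadjusted p under 0.05, 2 higher and 3 lower (41.7%, against 24.1% of all genes). Irak3, a kinase relative that restrains Myd88 signalling in macrophages, stood at 41.7, 29.3 and 52.7 CPM in KO 1, 2 and 3, against 22.7, 7.97 and 9.67 CPM in WT 1, 2 and 3. The groups did not overlap, and the log2 ratio was 1.62 ± 0.46 (edgeR adjusted p = 0.117, DESeq2 adjusted p = 0.0304). Sigirr, an inhibitory receptor of the same superfamily, was at -1.54, Socs1 at -1.17 and the RNase gene Zc3h12a at -0.70, and none passed by either tool.

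Receptors of the IL-1 family that share Myd88 were the list with the largest part at an unadjusted p under 0.05. These were 5 of 6, all higher, against 24.1% of all genes in either direction and 11.8% higher. The list is small and was chosen with earlier results of these data known, so its rank is a description. The median log2 ratio of the list was 1.59. Il18r1 lay the other way at -0.49 with groups that did not overlap, and Il1rap was at 1.03 with overlapping groups. None of the 6 passed by edgeR. DESeq2 called 4. Il1rl1, the IL-33 receptor, stood at 241.8, 236.9 and 41.9 CPM in KO 1, 2 and 3, against 29.9, 2.85 and 15.3 CPM in WT 1, 2 and 3, a log2 ratio of 3.44 ± 0.98 (edgeR adjusted p = 0.12, DESeq2 adjusted p = 0.00124). KO 3 was much nearer to WT 1 than KO 1 and KO 2 were. The IL-36 receptor gene Il1rl2 was at 1.41 ± 0.34 (edgeR adjusted p = 0.101), Il18rap at 2.12 and the IL-1 receptor gene Il1r1 at 1.78, and these 3 were also called by DESeq2. Il1r1 was 106.1 CPM in both KO 2 and WT 1.

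Genes known to be induced by ligands of these receptors had a median log2 ratio of 1.73 over 18 tested genes, 14 positive and 4 negative. At an unadjusted p under 0.05 there were 7, all higher. That was 38.9%, against 24.1% of all genes in either direction and 11.8% higher. The negative ones were Nos2 at -1.45, Tnf at -0.53, Ccl5 at -0.25 and Il12b at -0.19. None of the 18 passed by edgeR. Ptgs2, the inducible cyclooxygenase gene, stood at 242.7, 285.5 and 373.4 CPM in KO 1, 2 and 3, against 104.9, 9.998 and 48.3 CPM in WT 1, 2 and 3, a log2 ratio of 2.47 ± 0.76 (edgeR adjusted p = 0.131, DESeq2 adjusted p = 0.00953). The chemokine gene Cxcl1 was at 4.08, Il6 at 4.94 and the granulocyte growth factor gene Csf3 at 5.90, each called by DESeq2 and not by edgeR. Csf3 stood at 107.0, 21.5 and 1420 CPM in KO 1, 2 and 3 and at 19.9, 0.127 and 5.84 CPM in WT 1, 2 and 3, so KO 2 was close to WT 1. Ifnb1 had 0 reads in every library. For Ptgs2, Cxcl1, Il6 and Csf3 the value of KO 3 was the highest and that of WT 2 the lowest, the libraries with the highest and the lowest sum of neutrophil markers.

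**Figure D5:**
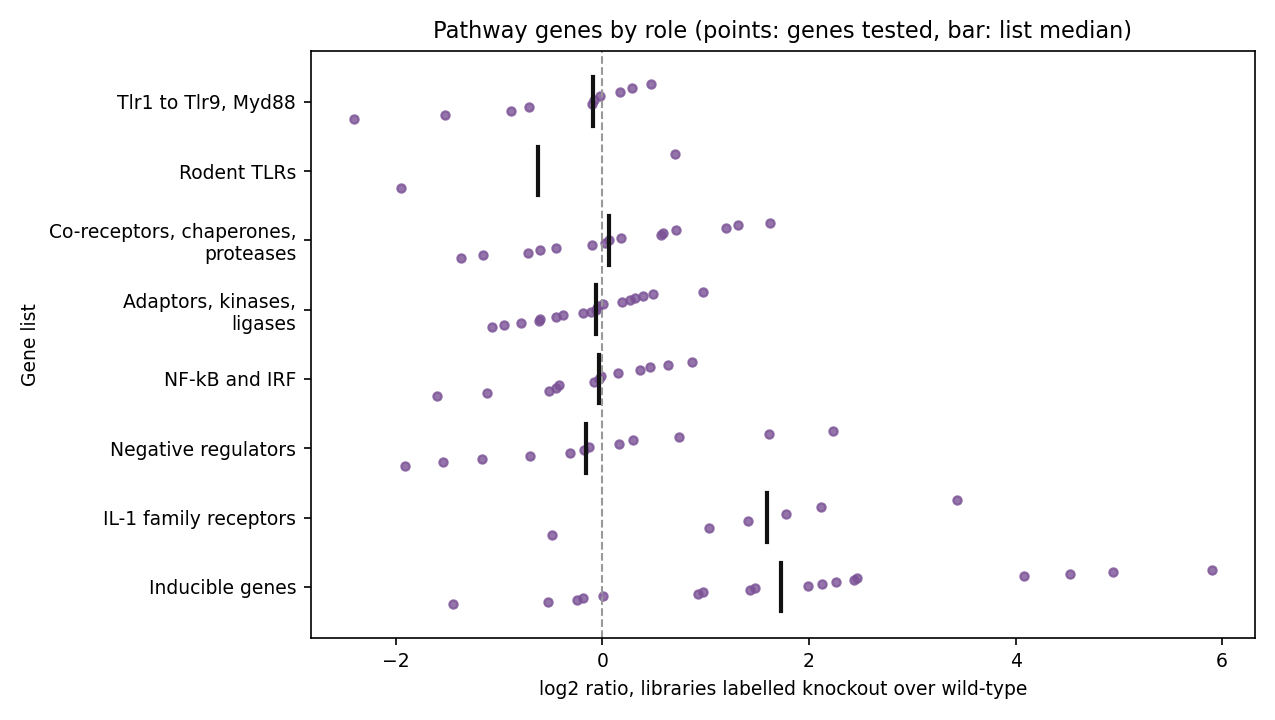
Log2 ratios of libraries labelled knockout over wild-type for the members and for 7 lists of other pathway genes, 1 point per tested gene and a bar at the list median. Medians lie at -0.093 for the members, 1.59 for IL-1 family receptors and 1.73 for inducible genes.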

How the data were processed

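The deposited table holds raw counts of reads per gene, 1 column per library. Per the labels' protocols, the authors first removed adaptor sequence, reads with unread bases and reads of low quality. The submitters' processing notes name, without roles, featureCounts 1.5.0-p3, HISAT2 2.0.5, DESeq2 and StringTie 1.3.3b, and the builds GRCm38 and mm10. Gene lengths are those of the deposited table. All 10 members had the same start and end in GENCODE M21.

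The main test was that of edgeR 4.0.16 in R 4.3.3 (filterByExpr with minimum count 10 and total 15, TMM, robust quasi-likelihood F test, no covariates), with Benjamini-Hochberg adjustment across 16861 genes and a threshold of 0.05. Log2 CPM used a prior count of 2. DESeq2 1.42.0 and limma 3.58.1 were alternatives. Named genes were all members, Itgbl1, up to 4 genes of smallest p per pathway list, the 3 genes closest to each member, and markers at 0. Tlr11, Ifnb1, Klk1, Gm45542, Acaa1a, Slc22a14, Xcr1, Clec9a and Zbtb46 were named after their values were seen. So were Batf3, Bst2, Cdx2, Hoxa13, Hoxb13, Hoxd13, Il18r1, Il1rap, Nos2, Tnf, Ccl5 and Il12b. Members and lists were chosen with earlier results of these data known. No 2 libraries of a group looked like copies, with a chi-square of 50.7 to 253 per degree of freedom between their counts. 1 gene of the colon identity list is not reported here.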

Additional observations from a re-analysis of the deposited data

How the results depend on the processing

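Alternatives covered scaling, filters, other tests, protein-coding genes alone, a replicate block and each library left out. Over all genes, where the quasi-likelihood test called 0, the count was 192 with no filter on low counts, 2029 with DESeq2, 1396 with limma-voom and quality weights and 3 with the replicate block, and 0 to 1813 with 1 library left out, the 1813 being without KO 2. Among the members the count of 0 became 2 with DESeq2 (Tlr1 and Tlr3), 1 with limma-voom and quality weights (Tlr1) and 0 to 1 with 1 library left out, the 1 being Tlr1 without KO 2. Among the other pathway genes it became 12 with DESeq2, 8 with quality weights and 0 to 9 with 1 library left out, the 9 being without KO 2. Limma-voom without weights, RLE and upper-quartile scaling, the stricter filter, protein-coding genes alone and the newer quasi-likelihood fit of edgeR, an alternative chosen after seeing the data, called 0 in each of the 3 counts.

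The log2 ratio of Tlr1 lay between -2.95 and -2.06 and that of Tlr3 between -1.81 and -1.35 over all alternatives. Tlr4, Tlr6, Tlr7 and Tlr8 changed sign in some settings. With upper-quartile scaling Tlr4 was at 0.0346, Tlr7 at 0.0511 and Tlr8 at 0.11. With limma-voom Tlr7 was at 0.0064 and Tlr8 at 0.0584, and with quality weights they were at 0.13 and 0.10. With the replicate block Tlr8 was at 0.0015. With 1 library left out Tlr4 ranged from -0.5576 to 0.1673, Tlr6 from -0.1397 to 0.3872, Tlr7 from -0.5083 to 0.4966 and Tlr8 from -1.0001 to 0.4372. The cause of these changes was not tested. Tlr5 has no value under the filter of 10 reads in every library. The replicate numbers share no stated source, and same-numbered libraries did not deviate together (correlations across genes of -0.201, 0.0866 and -0.0753). A member of the depth of Tlr5, with 1 to 41 reads, could show only large differences, and intervals cover the spread of 3 libraries a label.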
